A study of Mus musculus with 66 samples.

Results

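The members described here are immunoglobulin variable (V) segments, the gene segments that encode the antigen-binding end of antibody chains. Heavy chain V segments carry the prefix Ighv and kappa light chain V segments the prefix Igkv. A segment was taken as a member if its abundance, summed over its transcripts, was at least 1 TPM (a length-adjusted share of the transcripts in a library) in 3 or more of the 66 samples. This gave 173 members, 93 Ighv and 80 Igkv, of 274 Ighv and Igkv genes with values and of 30450 genes in all. The members were thus chosen by measured levels in these same samples, so that their being detected is no result, and their summed level, number and evenness are given as descriptions without a test. At the edge of the rule, 6 members reached 1 TPM in exactly 3 samples, with means over all samples between 0.0874 and 0.285 TPM. Outside it, 13 segments reached 1 TPM in exactly 2 samples, with means between 0.0342 and 0.373 TPM. Of the 101 segments outside the rule, 61 were listed at 0 in every sample.

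A B cell joins 1 of many V segments to short D and J segments (heavy chain) or to a J segment (light chain) and transcribes the product together with a constant region, so that all cells of a B cell clone carry the same V segments. Plasma cells, the antibody-secreting end stage of that lineage, make very large amounts of these transcripts. In the gut, plasma cells of the lamina propria mainly make IgA, whose dimers are held together by the J chain (Jchain) and carried through the columnar epithelium by the polymeric immunoglobulin receptor (Pigr).

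The samples came from 19 C57Bl/6 mice that were 6 weeks old at purchase. All but the uninjured mice were given 3% dextran sulfate sodium (DSS), an agent that injures the colonic lining, from day 0. It was given for 6 days unless the mouse was taken earlier. Uninjured mice were taken at day 0 (4 mice, mice 1 to 4), and 3 mice each at day 3 (still on DSS; mice 5 to 7), day 6 (8 to 10), day 9 (11 to 13), day 14 (14 to 16) and day 20 (17 to 19). Each mouse gave a section of mid-colon, rectum and anus, and each mouse of days 9, 14 and 20 also a section of squamous neo-epithelium, the squamous lining that appears after the injury. The muscle layer was removed, and each section was read as 1 bulk library per mouse, with no transgene or depletion named in the labels. In such bulk samples fewer cells of a type and less RNA per cell cannot be told apart. The sum of 5 squamous genes (Krt5, Krt13, Krt14, Trp63 and Sprr1b) was between 6919 and 22842 TPM in every sample labelled anus or neo-epithelium and at most 744 TPM in every sample labelled mid-colon or rectum. The sum of 5 skeletal muscle genes (Tnnc2, Acta1, Ckm, Myh4 and Tnnt3) was between 1122 and 12978 TPM over the anal samples. It was at most 131 TPM in every other sample. Anal libraries thus held muscle transcripts. Genes with at least 1 TPM numbered from 11268 to 13789 per sample. The read depth behind the values is unknown, so no counting interval is given, and a value of 0 is called listed at 0.

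All 93 Ighv members lie on chromosome 12 (mm10, between bases 113578504 and 116000461) and all 80 Igkv members on chromosome 6 (between bases 67555497 and 70704177), in 13 and 18 families of related sequence. The annotation (GENCODE M21) calls 169 of the members V genes and 4 Ighv members V pseudogenes. Among the V genes outside the rule, 53 Ighv and 4 Igkv segments are pseudogenes. Segments of a family are so alike that short reads cannot always be assigned: on the median, 50.2% of the 31-base words of a member's transcript occur in no other gene. Ighv1-71 has 0% such words, since all of its words occur in Ighv1-62-2, and Ighv1-72 has 1.91%, since 80.3% of its words occur in Ighv1-62-3. The values of these members are uncertain. Some segments also held equal deposited values: Igkv5-43 and Igkv5-45 held exactly the same value in all 40 samples in which either was above 0, and Igkv4-59 and Igkv4-68 in 48 of 50. In the other 2 samples, both of mouse 17, Igkv4-68 held 408 TPM in rectum with Igkv4-59 at 3.00 TPM, and Igkv4-59 held 280 TPM in neo-epithelium with Igkv4-68 at 0.542 TPM. Counts of members count such a shared value 2 times.

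The last 75 coding bases are printed for 8 segments that led the usage in some mice or that cannot be well separated, because this end, next to the junction, is where the closest segments can be seen side by side. They run 5′ to 3′ in the sense of the gene, and capitals mark the bases that differ from the closest other V segment in an alignment of the coding sequences. The sequences and gene positions are from GENCODE M21 (GRCm38, the assembly named mm10).
Ighv1-72: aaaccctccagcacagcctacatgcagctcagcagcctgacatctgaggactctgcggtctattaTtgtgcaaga
Ighv1-62-3: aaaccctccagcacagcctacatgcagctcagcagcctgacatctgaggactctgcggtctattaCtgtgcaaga
Igkv1-110: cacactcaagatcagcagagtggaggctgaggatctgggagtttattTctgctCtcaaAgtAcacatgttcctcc
Igkv1-117: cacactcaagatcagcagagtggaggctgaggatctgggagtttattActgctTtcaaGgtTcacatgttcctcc
Igkv10-96: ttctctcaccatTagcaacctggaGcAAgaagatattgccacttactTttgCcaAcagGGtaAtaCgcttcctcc
Ighv3-6: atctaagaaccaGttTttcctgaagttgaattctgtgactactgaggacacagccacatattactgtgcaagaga
Ighv10-1: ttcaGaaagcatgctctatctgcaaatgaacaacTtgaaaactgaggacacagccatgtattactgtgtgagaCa
Igkv15-103: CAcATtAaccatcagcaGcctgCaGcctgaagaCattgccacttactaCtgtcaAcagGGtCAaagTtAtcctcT

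Ighv1-72 (ENSMUSG00000096074, chr12:115757984-115758461, minus strand) differs from Ighv1-62-3 (ENSMUSG00000096767, chr12:115460999-115461485, minus strand) at 1 of these 75 bases and at 3 of 351 coding bases. Igkv1-110 (ENSMUSG00000093861, chr6:68270485-68271267, plus strand) and Igkv1-117 (ENSMUSG00000094335, chr6:68121046-68121827, plus strand) differ from each other at 4 of the 75 and at 10 of 359 coding bases. Igkv10-96 (ENSMUSG00000094420, chr6:68631963-68632442, minus strand) differs from its closest segment, Igkv10-94, at 11 of the 75 bases. Ighv3-6 (ENSMUSG00000076672, chr12:114288152-114288582, minus strand) was set against Ighv3-1 and differs at 2 of the 75 bases but at 29 of 350 coding bases, and 84.0% of its 31-base words are its own. Ighv10-1 (ENSMUSG00000095981, chr12:114479005-114479451, minus strand) was set against Ighv10-3 and differs at 3. Igkv15-103 (ENSMUSG00000076523, chr6:68437440-68437925, plus strand) has no close relative: 100% of its words are its own and 18 of the 75 bases differ from the closest segment, Igkv10-94. In all 169 members with an annotated coding sequence the annotated transcript ends with this end, so that these transcripts hold no sequence of the V(D)J junction or the constant region. How reads that lie partly in a V segment were counted is not known.

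Members were unevenly used. Over the 66 samples, 12 Ighv and 12 Igkv members together made up 50% of the mean level of their locus. The highest means of Igkv were those of Igkv1-117 (27.9 TPM), Igkv1-110 (27.3 TPM) and Igkv10-96 (21.9 TPM), and the highest of Ighv was that of Ighv1-72 (21.6 TPM). Medians were far lower, at 4.19, 5.63, 7.78 and 0.2 TPM, since a few samples held most of the signal: mice 17 and 18, both of day 20, held 54.9% of all member TPM, and 113 of the 173 members had their highest value in one of their samples. In all 19 mice, 9 segments reached 1 TPM in some section: Ighv1-26, Ighv1-64, Ighv1-76, Ighv7-3, Igkv1-110, Igkv1-117, Igkv10-94, Igkv10-96 and Igkv12-41. Only Ighv2-4 and Igkv11-125 were seen at that level in a single mouse. A mouse had between 51 and 154 members at this level in its sections, with a median of 78. In the 27 samples with at least 100 TPM of Ighv, the 49 members of the Ighv1 family took between 35.9% and 86.8% of the Ighv sum (median 64.4%). In the 41 samples with at least 100 TPM of Igkv, the 22 members of the Igkv4 family took a median of 24.3% and the 6 of the Igkv1 family 13.5%.

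In uninjured mice the V segments were at similar summed levels in rectum and mid-colon and at a lower mean in anus. In rectum the sums of the 4 mice were 626, 194, 256 and 384 TPM, in mid-colon 545, 125, 285 and 283 TPM, and in anus 83.1, 51.3, 22.9 and 274 TPM. Mouse 1 was the highest in rectum and mid-colon and mouse 2 the lowest in both. The ranges of rectum and mid-colon overlapped widely, and the anus of mouse 4 lay within both of them. The sum of 6 columnar epithelial genes (Epcam, Krt8, Krt20, Car1, Zg16 and Slc26a3) was between 1289 and 4146 TPM in the 4 anal samples, and Pigr, which columnar cells make, was 163, 175, 160 and 601 TPM, highest in mouse 4 as the V sum was. The part of such tissue in the anal V levels was not tested.

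For the tests on single members, limma was fitted on log2(TPM + 1) over all genes that passed a filter. A gene had to reach 1 TPM in as many samples as the smallest group of 1 section and day in the fit held. This was 3 samples also where the 3 later days were joined. A call is a Benjamini-Hochberg adjusted p under 0.05 over all those genes. Fits that set sections against each other held no term for the mouse, except where a block is named. Log2 differences are on this scale and understate the change of low genes. A member that entered only through the group in which it is high had to differ. The counts and median differences below thus describe the fits and are no support for a change of the V segments as a set. Counts under alternative settings come without the share of all genes called, so they show only how far a count depends on the setting. Called members were mostly named for a mean of at least 8 TPM in the higher group and no overlap between the groups. Their lack of overlap is therefore no separate result. Between anus and rectum at day 0, 35 members were tested and 14 were called lower in anus, against 34.4% of all genes called lower. Ighv1-76 was listed at 0 in 2 anal samples and was 1.92 and 1.29 TPM in the others, and was 30.5, 4.27, 5.40 and 6.85 TPM in rectum. The groups did not overlap, and the log2 difference was -2.57 ± 0.57 (SE; limma, adjusted p 0.0031). Igkv4-57 was listed at 0 in all 4 anal samples and was 3.05, 22.7, 4.25 and 3.58 TPM in rectum (limma, adjusted p 0.00072). With the mouse as a replicate block 20 members were called lower. Between rectum and mid-colon 1 of 60 members was called, higher in rectum, against 1.52% of all genes. This was Ighv1-64, at 7.86, 11.7, 5.76 and 8.52 TPM in rectum and 2.85, 1.05, 4.27 and 3.19 TPM in mid-colon, a log2 difference of 1.35 ± 0.29 (SE; limma, adjusted p 0.0487). With TMM factors, another scaling, no member was called (3 at an unadjusted p under 0.05). Blocking on the mouse gave 3 calls, of other members: the call of Ighv1-64 was lost in all 8 alternatives run.

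**Figure D1:**
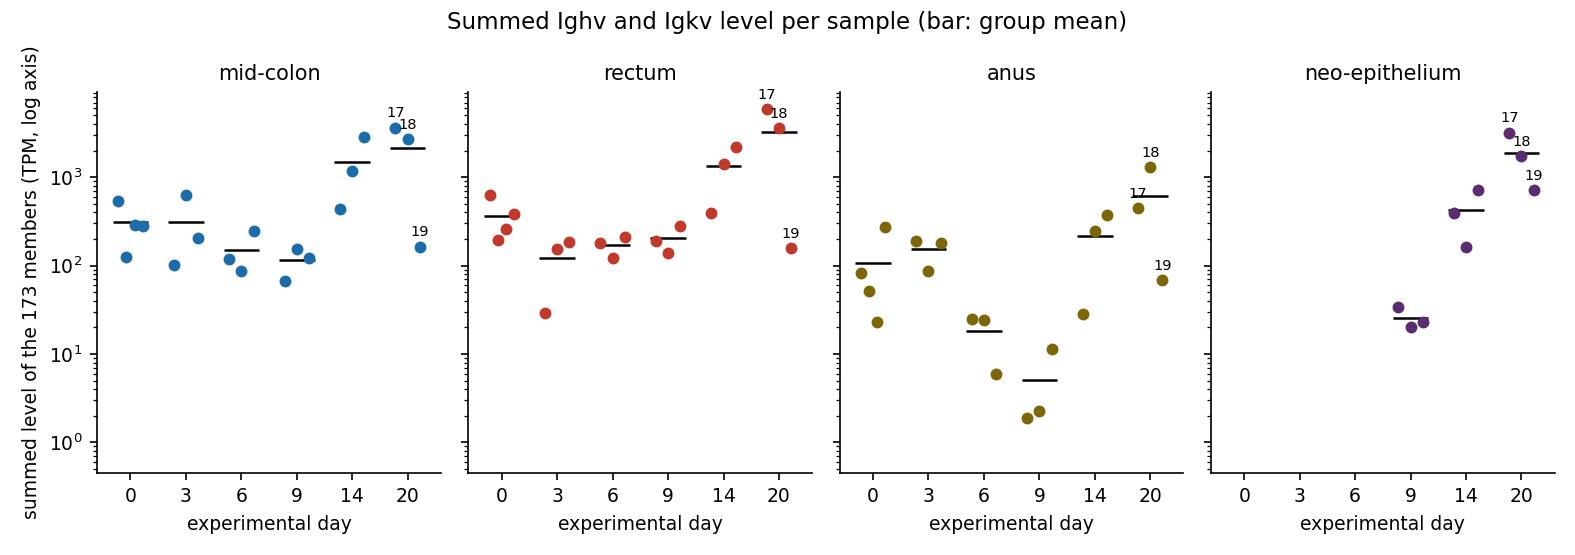
Summed level of the 173 V segment members in each sample (TPM, log axis) against experimental day, for each section; points are mice, bars are group means and the numbers at day 20 name the mice. Group means were lowest at day 3 in rectum and at day 9 in the other sections, and at day 20 mouse 19 lay far below mice 17 and 18 in mid-colon, rectum and anus.

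Mean V sums were below the uninjured mean in rectum from day 3 to day 9, and in mid-colon and anus at days 6 and 9. The rectal sum at day 3 was 29.0, 155 and 184 TPM in the 3 mice, below all 4 uninjured mice, with a mean of 123 ± 82.5 TPM (SD, n = 3) against 365 ± 191 (SD, n = 4). At day 6 it was 180, 120 and 210 TPM, and at day 9 188, 140 and 280 TPM, and in both groups 2 of 3 mice lay below the uninjured range. In mid-colon the sum at day 3 was 100, 628 and 207 TPM, a spread wider than that of day 0. It was 117, 87.9 and 246 TPM at day 6 and 66.7, 155 and 123 TPM at day 9, with 2 of 3 mice below the uninjured range each time. Anal sums at day 3 were 192, 87.0 and 180 TPM, inside the uninjured range, and then 24.8, 24.4 and 5.95 TPM at day 6. By day 9 the anal sums were 1.88, 2.23 and 11.2 TPM, all below the uninjured range, with 153 of the 173 members listed at 0 in all 3 mice. The columnar gene sum in anus was between 80.4 and 183 TPM at day 6 and between 92.4 and 121 TPM at day 9, against 1289 to 4146 TPM at day 0, and Pigr was called lower at both days (limma, adjusted p 0.000211 and 0.000203). In rectum the sum of neutrophil genes was between 1.51 and 6.07 TPM at day 0, 348 and 3450 TPM at day 6 and 10436 and 12298 TPM at day 9, when the columnar gene sum was between 10886 and 15380 TPM against 16185 to 18213 TPM at day 0. In mid-colon the neutrophil sum was between 451 and 2116 TPM at day 9 against 0.404 to 2.48 TPM at day 0. The part of these cells in the V levels, which are shares of a fixed total, was not tested. The low anal V sums stood beside low levels of columnar genes, whose part in them was not tested. The skeletal muscle sum in anus was between 1122 and 12978 TPM at day 0, 1338 and 7028 TPM at day 6 and 5473 and 5710 TPM at day 9. Its part in the anal V levels was not tested either.

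Few members were called at these days. In rectum 4 of 56 members were called at day 3, all lower, against 5.13% of all genes called lower, and 7 of 63 at day 6, all lower, against 37.2%. The median log2 difference at day 6 was -0.72 over the members tested and -0.27 over all genes tested, and with TMM factors only 2 members were called. Igkv4-57 was 3.05, 22.7, 4.25 and 3.58 TPM in rectum at day 0 and was listed at 0 in 1 mouse of day 6 and at 0.76 and 0.745 TPM in the others. Its log2 difference of -2.25 ± 0.57 (SE; limma, adjusted p 0.0129) held in all alternatives run. At day 9 in rectum 6 of 76 members were called, 2 higher and 4 lower, against 53.5% of all genes in either direction. Ighv1-64 was among the lower ones, at 2.55, 0 and 3.85 TPM against 5.76 to 11.7 TPM at day 0 (log2 difference -1.84 ± 0.49, SE; limma, adjusted p 0.0122).

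In mid-colon no member of 58 was called at day 3 (7 at an unadjusted p under 0.05, limma), against 0.375% of all genes. At day 6, 2 of 52 were called lower, against 9.99%, and at day 9, 6 of 51 were called, 2 higher and 4 lower, against 43.4% in either direction. Igkv4-57-1 went from 18.8, 2.93, 8.47 and 2.68 TPM at day 0 to 1.28 TPM in mouse 11 and 0 in mice 12 and 13 at day 9. The groups did not overlap (log2 difference -2.45 ± 0.56, SE; limma, adjusted p 0.00517). In anus none of 14, 5 and 3 members tested was called at days 3, 6 and 9 (3, 1 and 2 at an unadjusted p under 0.05, limma), against 0.044%, 15.0% and 5.09% of all genes. The later days of a section share their day 0 mice, so these counts are not independent of each other.

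At days 14 and 20 the mean V sums lay above the uninjured mean in all 3 sections, and the mice differed widely. In mid-colon the sum was 437, 1166 and 2873 TPM at day 14 and 3631, 2674 and 164 TPM at day 20. In rectum it was 393, 1411 and 2173 TPM at day 14 and 5869, 3600 and 158 TPM at day 20. In anus it was 28.1, 246 and 378 TPM at day 14 and 445, 1308 and 68.3 TPM at day 20. Thus at day 20 mice 17 and 18 lay above every uninjured mouse in all 3 sections, while mouse 19 lay within the uninjured range in mid-colon and anus and below it in rectum. Rectal means at day 20 were 3209 ± 2875 TPM (SD, n = 3) against 365 ± 191 at day 0 (SD, n = 4), a ratio of 8.8, and the groups overlapped. The day 14 mouse with the lowest sum was mouse 14 in all 3 sections. Summed levels of some other immune cell genes also lay above their uninjured range at day 14. The sum of 6 B cell genes in mid-colon was between 25.2 and 35.7 TPM at day 14 and between 2.04 and 3.77 TPM at day 0, and 6 of 8 B cell genes tested were called higher there. The sum of neutrophil genes in mid-colon was between 66.7 and 407 TPM at day 14 against 0.404 to 2.48 TPM at day 0, and that of T cell genes in rectum between 9.92 and 35.1 TPM against 1.67 to 4.03 TPM. Other sums overlapped day 0. In rectum the B cell sum was between 9.82 and 271 TPM at day 14 against 1.61 to 32.2 TPM. In mid-colon at day 20 the T cell sum was between 1.87 and 17.8 TPM against 1.66 to 2.44 TPM. The neutrophil sum there was between 2.38 and 155 TPM. The sum of 6 plasma cell genes (Jchain, Mzb1, Sdc1, Tnfrsf17, Derl3 and Prdm1) in mid-colon at day 14 was between 173 and 532 TPM against 163 to 279 TPM. This sum was also between 231 and 298 TPM in anus at day 9, where the mean V sum was 5.11 TPM. It is thus not read as a measure of plasma cells. The part of these cells in the V levels was not tested.

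Among transcripts that the rule did not use, constant region genes and Jchain stood high in the same mice at day 20, but none was called. Igkc, the kappa constant region, was 8278, 6104 and 374 TPM in rectum at day 20, in the order of mice 17, 18 and 19, against 217 to 865 TPM at day 0. Igha, the constant region of IgA, was 2365, 1354 and 69.0 TPM, and Jchain 897, 674 and 34.4 TPM. The 3 mice stood in the same order for these 3 genes as for the V sum. In mid-colon at day 20 Igkc was 5062, 6055 and 284 TPM, with mouse 19 again lowest. At day 20 limma called none of the constant region and lambda genes tested (7 of 9 in rectum and 6 of 10 in mid-colon had an unadjusted p under 0.05) and none of the plasma cell genes (4 of 8 and 2 of 7). The ratio of the summed Igkv level to Igkc had a median of 0.406 over the 66 samples. It ranged from 0.277 to 0.529 in rectum, 0.269 to 0.728 in mid-colon, 0.306 to 0.43 in neo-epithelium and 0.136 to 0.774 in anus. Igkc and the V segments are parts of the same transcripts, so their moving together is no independent evidence.

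At day 14, 13 of 93 members tested in mid-colon were called, all higher, against 2.55% of all genes called higher, and 14 of 107 in rectum, all higher, against 6.31%. Members with equal values in all samples of a fit make these 11 and 13 distinct signals: Igkv4-59 with Igkv4-68 in both sections, and Igkv5-43 with Igkv5-45 in mid-colon. At day 20 there were 7 of 96 in mid-colon against 0.677%, and 10 of 105 in rectum against 2.79%, all higher. The median log2 difference of the members tested was 1.45 and 1.22 at day 14 and 1.58 and 1.68 at day 20, in mid-colon and rectum, against medians of all genes between -0.05 and -0.02. Members that entered only through the later day push these medians up, so the contrast with all genes is no result. With no filter on low values, which tests nearly all members, only 3 of 163 and 9 of 167 were called at day 14, and 1 of 167 and 1 of 171 at day 20. A single mouse also set these counts. Without mouse 19 they were 60 of 131 in mid-colon and 76 of 135 in rectum at day 20. Without mouse 14 they were 42 of 113 and 60 of 133 at day 14. They fell as well, at day 20 to 3 in mid-colon without mouse 2 and to 1 in rectum without mouse 1. At day 14 they fell to 4 and 6 without mouse 2. In anus 1 of 21 was called at day 14 and 2 of 29 at day 20, all higher, against 2.26% and 1.09% of all genes, or 11 of 42 without mouse 14 and 13 of 61 without mouse 19.

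The called members named next were, by the choice given above, higher in all 3 mice of a day than in every uninjured mouse. Ighv3-6 was 1.10 and 5.96 TPM in the rectum of mice 1 and 3 at day 0, was given only a trace in mice 2 and 4, and was 40.2, 29.8 and 25.2 TPM at day 14. The groups did not overlap, and the log2 difference was 4.04 ± 0.65 (SE; limma, adjusted p 0.0126). Igkv15-103, the light chain segment with no close relative among those printed above, was at most 2.32 TPM in rectum at day 0 and 35.0, 19.8 and 11.5 TPM at day 14 (log2 difference 3.37 ± 0.50, SE; limma, adjusted p 0.0106). Igkv13-84 in mid-colon was listed at 0 in 3 uninjured mice and at 0.708 TPM in the other, and was 9.25, 27.7 and 89.0 TPM at day 14 (limma, adjusted p 0.00711). All 3 calls held in the alternatives run. The call of Ighv3-6 in mid-colon at day 14 (10.8 to 85.1 TPM against 0 to 5.50; limma, adjusted p 0.03) was lost in 5 of 10 alternatives.

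At day 20, Igkv14-111 was 13.3, 59.3 and 15.3 TPM in mid-colon against 0 to 2.05 TPM at day 0, so that mouse 19, low in its sum, lay with the others (log2 difference 3.97 ± 0.53, SE; limma, adjusted p 0.0106), a call lost with no filter on low values. It was 29.6, 61.8 and 6.61 TPM in rectum against 0 to 3.65 TPM (limma, adjusted p 0.0312), a call lost in 7 of 10 alternatives. Igkv1-135 was 35.0, 80.9 and 4.67 TPM in mid-colon against 0 to 2.82, and 78.1, 116 and 6.67 TPM in rectum against 0.719 to 6.17 (limma, adjusted p 0.0421 and 0.0435). Its highest uninjured and lowest day 20 rectal values, 6.17 and 6.67 TPM, nearly met, and both of its calls were lost in 7 of 10 alternatives. In anus Igkv12-46 was listed at 0 in all 4 uninjured mice and was 9.71, 7.46 and 12.7 TPM at day 20 (limma, adjusted p 0.000527), and Igkv1-117 went from 0 in all 4 to 16.3, 26.8 and 2.97 TPM (limma, adjusted p 0.0315), a call lost in 6 of 10 alternatives. With no fold to give against values listed at 0, only these levels are stated.

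Some of the most abundant members were not called in mid-colon at day 20. Igkv1-110 was 146, 275 and 6.01 TPM in mid-colon at day 20 against 29.6, 0, 5.26 and 47.4 TPM at day 0 (limma, adjusted p 0.304). Ighv1-72 was 387, 69.8 and 0 TPM against 18.2, 0, 0 and 0 (limma, adjusted p 0.241). Both were high in mice 17 and 18 and low in mouse 19. Added to its near-identical neighbour Ighv1-62-3, Ighv1-72 came to 389 TPM in the mid-colon of mouse 17 and 203 TPM in the rectum of mouse 18.

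**Figure D2:**
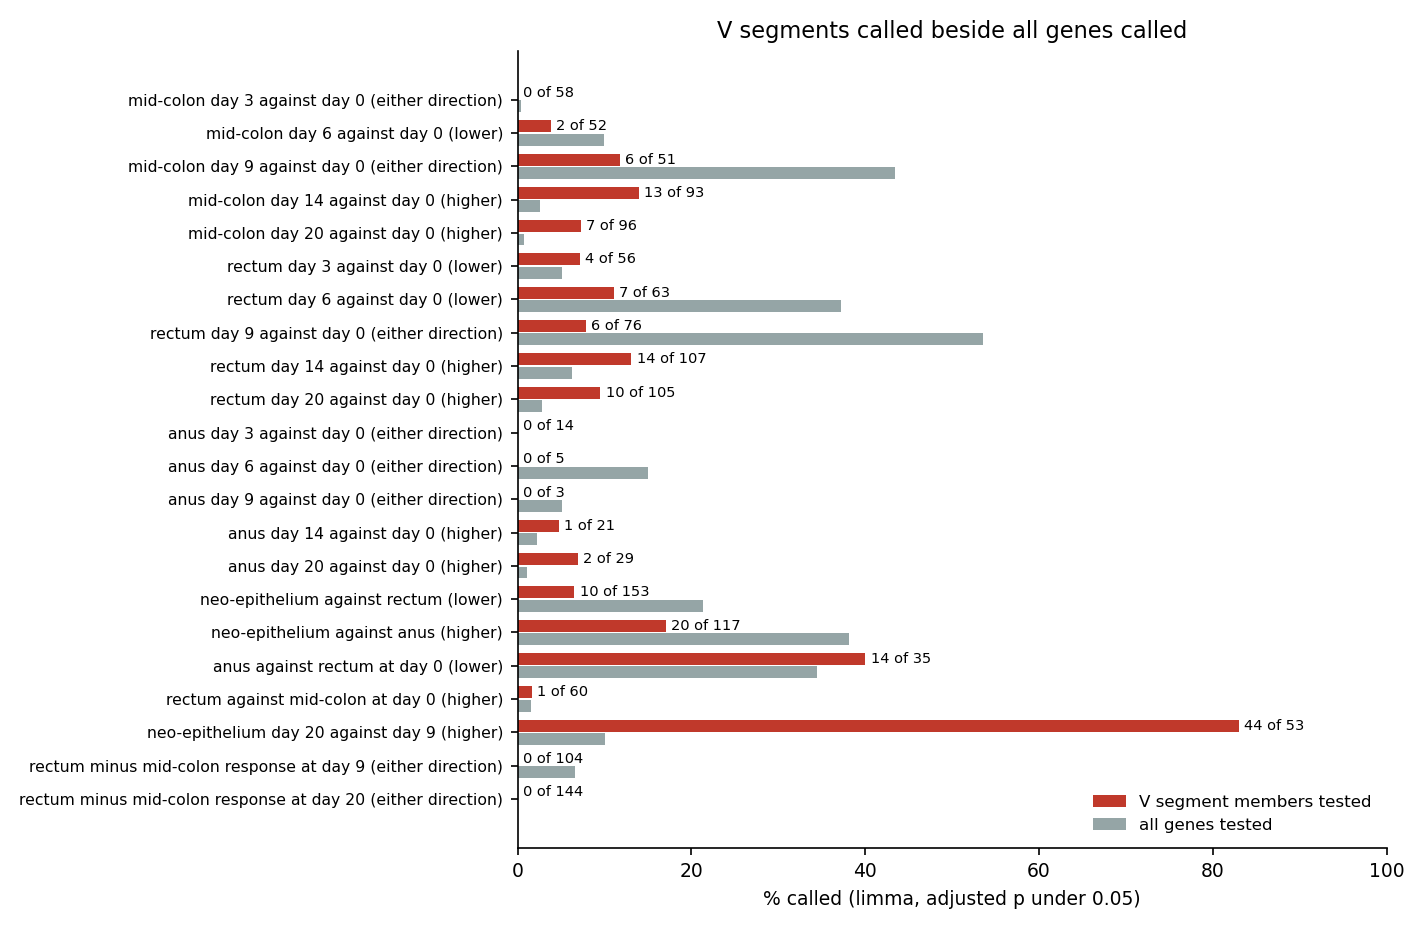
Percentage of the V segment members tested that were called (red, with the counts) and of all genes tested that were called (grey), by comparison and direction, on a linear axis. The members' share lay above that of all genes at days 14 and 20 and in neo-epithelium at day 20 against day 9, and below it in the comparisons of days 6 and 9 with day 0; members enter only if expressed in enough samples.

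The number of members present, at 1 TPM or more, followed the sums. In rectum it was 93, 48, 57 and 64 at day 0, then 10, 39 and 36 at day 3, all below the uninjured range, and 45, 44 and 39 at day 6. It returned to 57, 40 and 65 at day 9 and reached 71, 137 and 117 at day 14 and 129, 135 and 46 at day 20. In mid-colon it was 66, 37, 57 and 51 at day 0, and 81, 95 and 125 at day 14, above the uninjured range in all 3 mice. In anus it was 17, 8, 9 and 32 at day 0 and 0, 0 and 6 at day 9. The number depends on the level, since more segments pass 1 TPM in a sample with a higher sum, and this dependence was not removed. Of the 173 members, 125 were present in at least 1 uninjured rectum but only 17 in all 4, and at day 14 152 were present in at least 1 rectum and 57 in all 3.

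**Figure D3:**
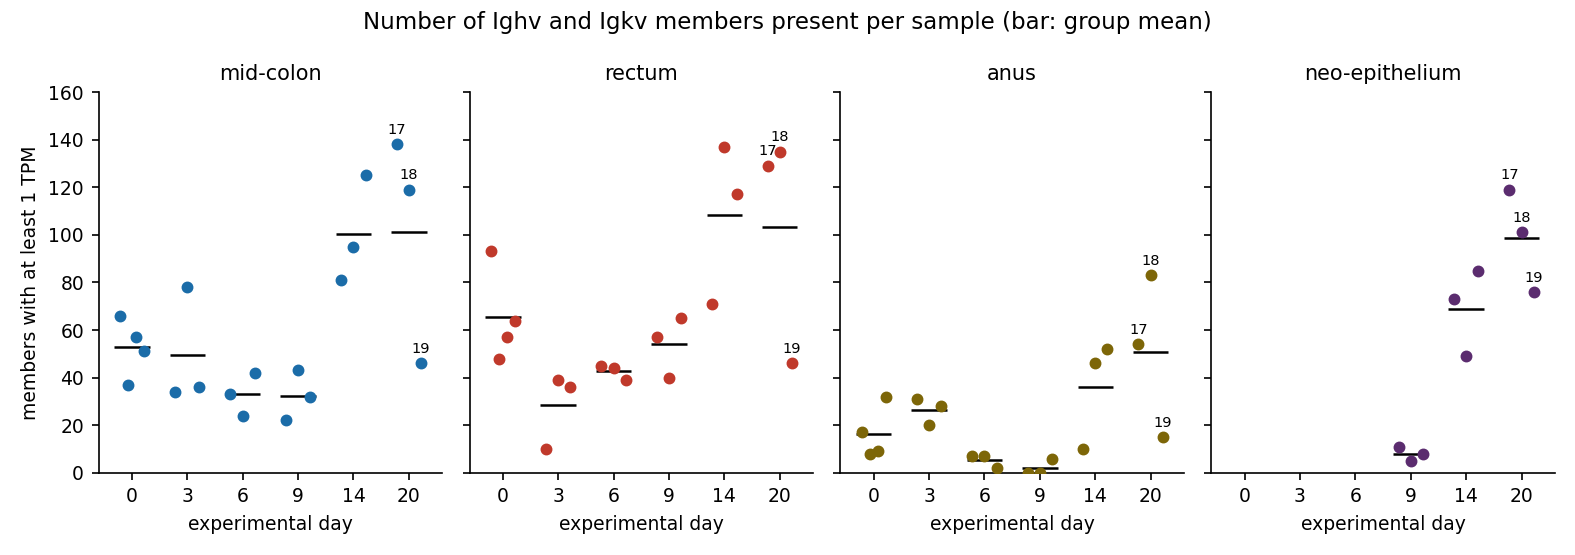
Number of the 173 V segment members with at least 1 TPM in each sample (linear axis from 0) against experimental day, by section; points are mice, bars are group means and the numbers at day 20 name the mice. In neo-epithelium the number went from between 5 and 11 at day 9 to between 76 and 119 at day 20.

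Evenness describes how equally the segments of a locus share its level. It was taken as Pielou's index, the Shannon entropy divided by its maximum for the segments above 0, so that 1 means equal shares. Ighv evenness in rectum was between 0.837 and 0.893 at day 0, 0.891 and 0.903 at day 9, and 0.769 and 0.928 at day 20. Igkv evenness in mid-colon was between 0.769 and 0.838 at day 0 and between 0.876 and 0.88 at day 6. It also lay above every uninjured mouse in mid-colon at days 9 and 14 and in rectum at day 9. The index can depend on the sum and on the number of segments above 0. This dependence was not removed, and no change of usage is read from these values. The highest Ighv value of day 20 in rectum was that of mouse 19 (0.928), and mice 17 and 18 had 0.769 and 0.834. In all, 50% of the Ighv level was held by 5 to 8 segments in rectum at day 0 and by 5 to 9 at day 20. In anus at days 6 and 9 the index rested on at most 7 segments above 0 in a locus, and with 1 segment it has no value, so it was not read there.

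In neo-epithelium the V sum was 33.8, 20.4 and 22.8 TPM at day 9, 389, 163 and 726 TPM at day 14 and 3179, 1732 and 710 TPM at day 20, with no overlap between day 9 and either later day. The mean at day 20, 1874 ± 1241 TPM, was 73.1 times that of day 9, 25.6 ± 7.15 TPM (SD, n = 3 each). The neo-epithelium of mouse 19 had 710 TPM, far above the 158 TPM in its rectum and 164 TPM in its mid-colon. Between day 20 and day 9, 44 of 53 members tested were called higher and none lower, against 10.1% of all genes called higher, and with no filter 33 of 148. Without mouse 12, of day 9, the count was 25, and without mouse 19, of day 20, it was 75. The 53 members entered mostly through day 20, since 138 of the 173 were listed at 0 in all 3 samples of day 9. Ighv10-1 was listed at 0 in all 3 samples of day 9 and was 178, 23.3 and 31 TPM at day 20 (limma, adjusted p 0.00423). Igkv10-96 was likewise at 0 and then 81.0, 83.6 and 23.2 TPM (limma, adjusted p 0.00194). Both calls held in all 9 alternatives run.

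Of the other antibody genes listed, 8 of the 9 constant region and lambda genes tested were called higher in neo-epithelium at day 20 than at day 9. Igha was 11.6, 5.39 and 8.54 TPM at day 9 and 1081, 952 and 284 TPM at day 20 (log2 difference 6.18 ± 0.53, SE; limma, adjusted p 0.00208). Among 6 plasma cell genes tested 2 were called higher: Jchain, at 2.66, 1.41 and 2.23 against 606, 357 and 93.8 TPM (limma, adjusted p 0.0027), and Mzb1, a chaperone of antibody-making cells (limma, adjusted p 0.0107). Of 2 B cell genes tested 1 was called higher. Columnar genes moved in the same samples: Pigr was 14.4, 7.62 and 3.81 TPM at day 9 and 615, 230 and 556 TPM at day 20 (log2 difference 5.64 ± 0.52, SE; limma, adjusted p 0.0023). The columnar gene sum was between 180 and 928 TPM at day 9, 1397 and 8179 TPM at day 14 and 4415 and 9050 TPM at day 20. The neutrophil gene sum went the other way, from between 6819 and 17153 TPM at day 9 to between 486 and 5444 TPM at day 20. The part of these changes in the V level of neo-epithelium, a share of a fixed total, was not tested.

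In a fit of the 3 later days together that allowed each day its own level, 10 of 153 members were called lower in neo-epithelium than in rectum and none higher, against 21.3% of all genes called lower. With the mouse as a replicate block 36 were called lower. The count moved with the days: it was 28 without day 20 and 1 without day 14. Igkv10-96 had a log2 difference of -1.54 ± 0.57 (SE; limma, adjusted p 0.0384). B cell genes were lower too: 9 of 10 were called lower in neo-epithelium, with Ms4a1 (CD20) at 1.13 ± 0.832 against 10.6 ± 8.71 TPM (SD, n = 9 each; limma, adjusted p 0.000337). Against anus, 20 of 117 members were called higher in neo-epithelium and none lower, against 38.1% of all genes called higher, and 30 with the block. Without day 14 the count was 5 and without day 20 it was 7.

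Whether the V segments responded differently in rectum and mid-colon was tested as an interaction. At day 9 none of 104 members was called (4 at an unadjusted p under 0.05, limma), against 6.55% of all genes, and 2 were when the mouse was a block. At day 20 none of 144 was called (2 at an unadjusted p under 0.05, limma), against 0.00756% of all genes, and none with the block (24 at an unadjusted p under 0.05).

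Some mice had the same leading V segments in several sections. In mouse 1, uninjured, Ighv1-76 led the Ighv locus and Igkv10-96 the Igkv locus in both mid-colon and rectum: Igkv10-96 was 45.5 and 51.0 TPM, or 12.2% and 13.1% of the Igkv sum. Mouse 2 had Igkv4-57 in front in both, with 27.8% of the Igkv sum in mid-colon and 19.9% in rectum, while the other 3 uninjured mice had at most 2.94% in either section. Mouse 4 had Ighv4-1 and Igkv1-110 in front in both sections, the latter with 25.8% and 24.3%. In mouse 3 Igkv6-23 led in both. The leading Igkv segment was thus the same in mid-colon and rectum in all 4 uninjured mice and differed between the mice, whereas the leading Ighv segment was the same in 2 of the 4.

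At day 14, Ighv3-6 led in mid-colon, rectum and neo-epithelium of mouse 14, with 21.9%, 26.4% and 16.9% of the Ighv sum, and held 25.8% in its anus. Igkv15-103 led the Igkv locus in all 4 of its sections, with 9.93%, 14.5%, 14.9% and 19.4%. In mouse 16 Igkv4-57 led in all 4 sections, with 9.48% in mid-colon and 10.6% in rectum, and Ighv1-42 led in mid-colon (144 TPM) and rectum (138 TPM). At day 20, Ighv10-1 led in rectum, neo-epithelium and anus of mouse 17 with 15.4%, 15.4% and 24.9% of the Ighv sum, but held 3.8% in its mid-colon, where Ighv1-72 led with 28.5%. Ighv1-72 led in rectum, neo-epithelium and anus of mouse 18, with 15.3%, 12.6% and 20.8%.

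**Figure D4:**
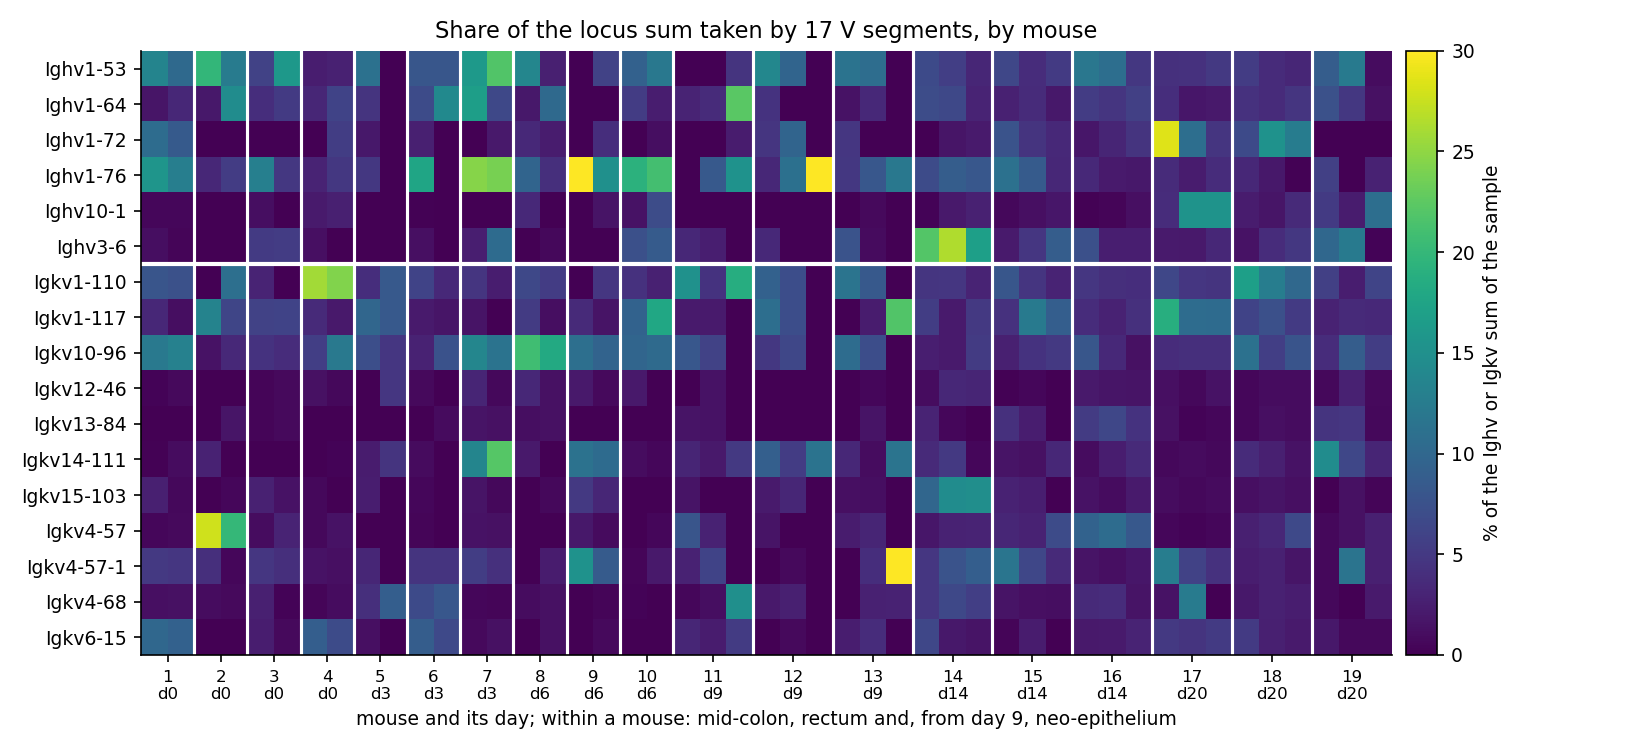
Share of the Ighv or Igkv sum of each sample taken by 17 V segments (colour, %, cut at 30%), with samples ordered by mouse (number and day on the axis) and, within a mouse, by mid-colon, rectum and neo-epithelium. Bright cells tend to stand side by side within a mouse, as for Ighv3-6 in mouse 14 and Igkv1-110 in mouse 4.

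Over all mice, the same Ighv segment led in mid-colon and rectum of 8 of 19 mice, and in 6 of the 42 pairs made of the mid-colon of a mouse and the rectum of another mouse of the same day. The same Igkv segment led in 8 of 19 mice and in 2 of 42 such pairs. Of the 5 leading Igkv segments, 3.11 were shared on average within a mouse and 1.19 between mice, and of the 5 leading Ighv segments 2.58 and 1.07. Between neo-epithelium and rectum, the leading Igkv segment was the same in 4 of 9 mice and in 1 of 18 pairs of different mice, and the leading Ighv segment in 3 of 9 and 0 of 18. Mouse 17 counted as different for Igkv, with Igkv4-59 in front in neo-epithelium and Igkv4-68 in rectum. These segments held equal values in 48 of 50 samples, so this count rests on how their reads were divided. Between neo-epithelium and mid-colon the counts were 4 of 9 and 0 of 18 for Igkv and 2 of 9 and 1 of 18 for Ighv. Between anus and rectum they were 2 of 19 mice and 1 of 42 pairs for Igkv and 5 of 19 and 2 of 42 for Ighv.

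As a measure over all members, the log2(TPM + 1) values were centred on the mean of their section and day and correlated between sections over the 173 members. In mid-colon and rectum of the same mouse Pearson's r was between 0.353 and 0.778 (median 0.535, 19 mice), and between different mice of the same day it was between -0.547 and 0.076 (median -0.249, 42 pairs). The ranges did not overlap. Centring on 3 or 4 mice pushes the r between different mice below 0 by construction. Without centring, the medians were 0.735 within a mouse and 0.406 between mice. The samples of a mouse also share its total V level, its genotype and its handling, and a high sum raises all members at once. Over the 15835 other genes with at least 1 TPM in 3 samples, the same r for mid-colon and rectum had a median of 0.288 within a mouse and -0.119 between mice. With the 93 Ighv members alone the medians were 0.505 and -0.210, and with the 80 Igkv members alone 0.574 and -0.264.

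Rectum and neo-epithelium of the same mouse had a median r of 0.527 (9 mice), against -0.165 between different mice (18 pairs), and the 9 mice split by day. At day 9, when the neo-epithelium held few segments, r was -0.257, -0.098 and -0.027 in mice 11, 12 and 13. At day 14 it was 0.527, 0.472 and 0.719, and at day 20 it was 0.634, 0.528 and 0.542. All 6 later mice thus lay above the 3 mice of day 9. For anus the within-mouse medians over all days were lower, at 0.263 with rectum and 0.279 with mid-colon (19 mice each), and these pairs differed by day too. With rectum, r was 0.188, -0.051 and -0.040 at day 6 and 0.079, 0.138 and 0.221 at day 9, when few anal segments were above 0. It was 0.544, 0.406 and 0.617 at day 14 and 0.414, 0.539 and 0.634 at day 20. These correlations are descriptions over members of the same libraries and carry no test.

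**Figure D5:**
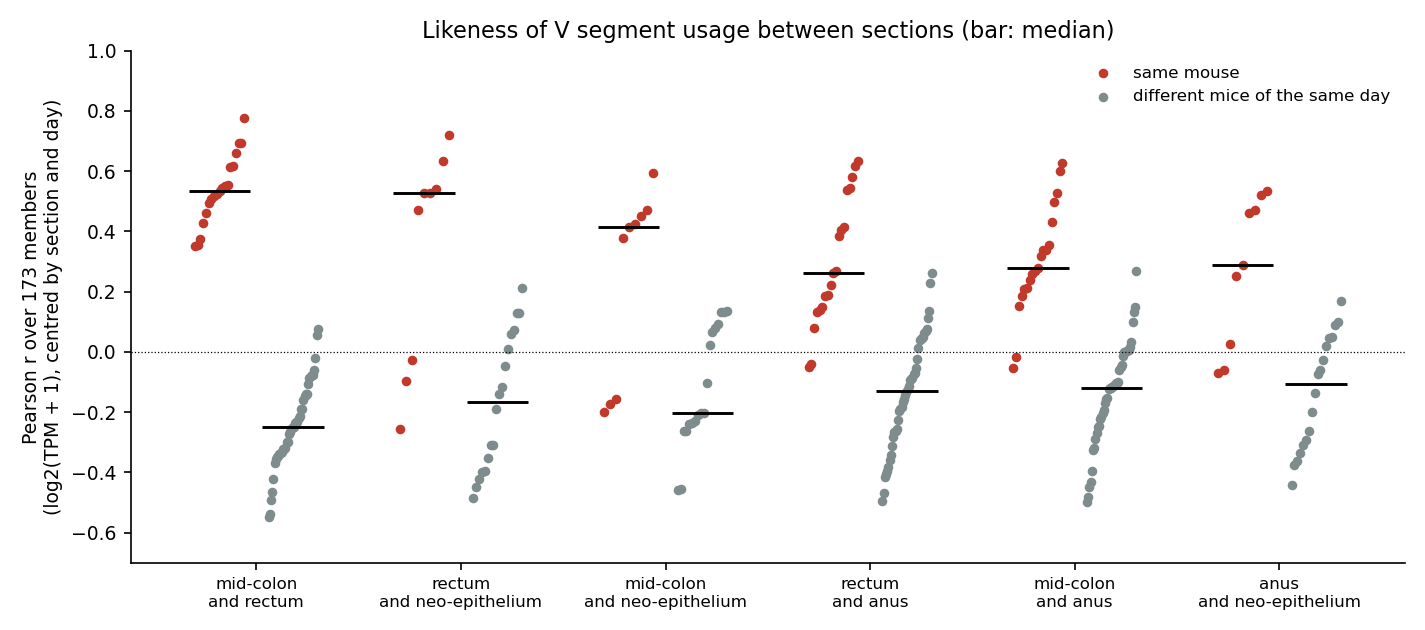
Pearson r of V segment usage (log2(TPM + 1), centred by section and day, over 173 members) between sections of the same mouse (red) and of different mice of the same day (grey), for the 6 pairs of sections; bars are medians. For mid-colon and rectum every within-mouse value (lowest 0.353) lay above every between-mouse value (highest 0.076).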

How the data were processed

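RNA from 66 sections of 19 mice was read by single-end sequencing of a stranded mRNA library, per the labels' protocols. The authors deposited 1 table with a TPM value per Ensembl transcript (another unit than counts, here a length-adjusted share); the submitters' processing notes name CASAVA, kallisto and mm10 without versions, and index and settings are not given in the sources used here. Of 126860 rows, 37344 held no values and 1318 repeats were dropped, and the remaining transcripts were summed per gene symbol. TPM adds to a fixed total, so a share can move when other genes do, and reads that suit several V segments are divided by an estimate.

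Genes were tested with limma 3.58.1 (R 4.3.3) on log2(TPM + 1), with a prior trend and Benjamini-Hochberg adjustment over all genes that reached 1 TPM in a number of samples equal to the size of the smaller group; the steps were tested on simulated data. Other values came from Python 3.11.15. The V segment members and the gene lists were chosen with earlier results of these data known. The text names the leading members by mean level and, per comparison, called members with at least 8 TPM in the higher group and no overlap between groups, the largest in each direction; members shown for their usage within a mouse (Ighv4-1, Ighv1-42, Igkv6-23), Ighv1-62-3, and Igkv10-96 between neo-epithelium and rectum were chosen after their values were seen.

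Sections could be paired by the mouse they came from, per the labels. The main fits of sections against each other, and of the interactions, held no term for the mouse. Their SEs and p-values thus ignore the pairing, which entered only where the mouse was a block. Deviations from the group means correlated within a mouse with a mean r of 0.258 (neo-epithelium and rectum, 9 mice), 0.157 (neo-epithelium and anus, 9 mice), 0.0516 (anus and rectum at day 0, 4 mice) and 0.133 (rectum and mid-colon at day 0, 4 mice). Alternatives were a pseudocount of 0.1 TPM, no filter, TMM factors, the mouse as a block, and leaving out mice or days. Promoters and proteins of the members were not analysed here.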

Additional observations from a re-analysis of the deposited data

Results flagged for a closer look

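Groups of 4 uninjured mice were searched for a mouse far from the other 3, and chance gives such a mouse in about 1 in 20 groups. The search covered 29 groups and found 4. Igkv evenness in mid-colon was 0.769 in mouse 4 and between 0.831 and 0.838 in the others, and Igkv1-110 took 25.8% of the Igkv sum in that sample. Igkv4-57 in rectum was 22.7 TPM in mouse 2 and between 3.05 and 4.25 TPM in the others, and was also highest in mouse 2 in mid-colon. Ighv1-76 in rectum was 30.5 TPM in mouse 1 and between 4.27 and 6.85 TPM in the others. Igkv13-84 in mid-colon was 0.708 TPM in mouse 3 and listed at 0 in the others. A group with 3 equal values is always found when the other value differs, so the share given by chance does not hold for Igkv13-84, and nothing is read from it.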

How the results depend on the processing

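No fitted difference of a named member, and none in summed level or number present, changed sign (26 differences). Of 8 differences in evenness, in which the groups overlapped by Pielou's index, 7 changed sign in some alternative, and no direction is read from these 7. Ighv evenness at day 20 minus day 0 went from -0.0296 to 0.0214 in mid-colon and from -0.0224 to 0.0151 in rectum without mouse 17. Igkv evenness in neo-epithelium at day 20 minus day 9 was -0.0587 and kept its sign in all 9 alternatives. There 2 of 3 mice lay below all mice of day 9, when 138 of the 173 members were listed at 0 in all 3 samples. The index of day 9 thus rested on few segments, which no alternative removed, so no direction is read from this difference either. With no filter on low values the members called at days 6, 9, 14 and 20 in mid-colon were 1, 2, 3 and 1, in rectum 2, 2, 9 and 1 at days 3, 6, 14 and 20, in anus 0 and 1 at the last 2 days, 6 for neo-epithelium against rectum, 23 for anus against rectum and 0 for rectum against mid-colon. More genes are tested then. A pseudocount of 0.1 TPM gave 1 in mid-colon at day 3, 4 at day 20, and 0 in anus at day 14 and for rectum against mid-colon. TMM factors gave 2 in rectum at day 6 and 0 for rectum against mid-colon. For these and the following the cause was not tested. With the mouse as a replicate block the counts were 36 for neo-epithelium against rectum, 30 against anus, 20 for anus against rectum, 3 for rectum against mid-colon, and 2 and 0 for the interactions at days 9 and 20. Neo-epithelium against rectum gave 5, 1 and 28 without days 9, 14 and 20, and against anus 5 and 7 without days 14 and 20.

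Leaving out 1 mouse at a time, mid-colon counts ranged from 0 to 0, 1 to 5, 4 to 12, 4 to 42 and 3 to 60 at days 3, 6, 9, 14 and 20, and rectal counts from 3 to 10, 4 to 9, 6 to 10, 6 to 60 and 1 to 76. The lowest counts of days 14 and 20 came without an uninjured mouse (mouse 2, or mouse 1 for rectum at day 20), and the highest without mouse 14 or 19. Anal counts ranged from 0 to 1 at days 3, 6 and 9, from 0 to 11 at day 14 and from 1 to 13 at day 20. Anus against rectum ranged from 11 to 18, rectum against mid-colon from 0 to 1, neo-epithelium day 20 against day 9 from 25 (without mouse 12) to 75 (without mouse 19), and the interaction from 0 to 1 at day 9 and 0 to 0 at day 20. At a threshold of 5 TPM, 63 more members were present in neo-epithelium at day 20 than at day 9, and Simpson evenness differed by -0.245 (Ighv, 0.0135 by Pielou's index) and -0.363 (Igkv). The likeness settings were chosen after seeing the data: not centred, the median r was 0.735 within and 0.406 between mice, and centred on the section alone 0.0379 between mice. Depth is unknown, so the precision of single low segments is not known.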
